A study of Mus musculus with 12 samples.

Results

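This report describes 10 genes that sense bile acids or carry their feedback signal in the liver, out of 25676 genes in the authors' deposited table. They were chosen by name, as the rows for *Nr1h4*, *Nr0b2*, *Rxra*, *Fgf15*, *Fgfr4*, *Klb*, *Nr1i2*, *Nr1i3*, *Vdr* and *Gpbar1*, and the rule uses no measured value. Earlier results of these data were known when the members, and the gene lists set beside them below, were chosen. Messenger RNA was measured by sequencing of whole liver from 12 mice, in 4 groups of 3. The KO mice carry Cre recombinase under the *Foxa3* promoter and lack *Yap1*, and the groups are WT males, WT females, KO males and KO females. The labels put all of them on the C57BL/6 background at an age of 3 to 4 months, name each animal separately, and describe the WT mice only as wild type and healthy, so whether they carry a floxed *Yap1* allele or Cre is not given in the sources used here. *Foxa3* is active in the embryonic foregut endoderm, the source of both hepatocytes and bile duct cells, so removal under its promoter is not specific to either cell type or to the adult liver. Values are TPM, a share of the library's transcripts that is scaled for gene length, so levels can be compared between genes.

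Bile acids are made from cholesterol in hepatocytes and their synthesis is held in check by their own receptors. FXR, encoded by *Nr1h4*, binds bile acids together with its partner RXR alpha (*Rxra*) and in the liver induces SHP (*Nr0b2*), a repressor that lacks a DNA-binding domain. In the ileum FXR induces the hormone FGF15 (*Fgf15*), which reaches the liver through the portal blood and acts on hepatocytes through the receptor FGFR4 and its co-receptor beta-Klotho (*Klb*) to lower the synthesis enzymes CYP7A1 and CYP8B1. PXR (*Nr1i2*) and CAR (*Nr1i3*) sense foreign compounds and some bile acids and induce genes of detoxification and transport. The vitamin D receptor (*Vdr*) also binds the secondary bile acid lithocholic acid, and TGR5 (*Gpbar1*) is a bile acid receptor of the cell membrane.

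*Yap1* fell from 29.5 ± 4.46 TPM (SD, n = 6) in WT to 2.02 ± 0.775 TPM (SD, n = 6) in KO (exact permutation p = 0.005, the lowest value possible with these group sizes), and summed Y-linked transcripts matched the labelled sex of every library. Steps in the low TPM values put the depth at about 23535385 to 33400678 reads per library, an approximate figure that rests on annotated gene lengths. In TPM as deposited, the median tested gene was 0.35 higher in KO on the log2 scale, and 6153 of 12278 tested genes were called higher against 592 lower. After rescaling each library by the median ratio over 12819 genes, the median difference was -0.04 and 2568 genes were called higher against 2293 lower. The tested members are therefore given on both scales. Hepatocyte markers summed to 65114 to 93353 TPM in WT and 49110 to 73819 TPM in KO with all 6 markers above 0 in both, most of the sum being *Alb*. Of these 6 markers 1 rose and 1 fell as deposited, and 0 rose and 3 fell after rescaling. Macrophage markers summed to 60.9 to 196 TPM in WT and 301 to 614 TPM in KO, cholangiocyte markers to 12.5 to 18.1 and 23.3 to 35.1 TPM, and stellate cell markers to 54.3 to 155 and 114 to 285 TPM. In whole tissue, fewer cells of a type and less RNA per cell cannot be told apart, and the part of these shifts in the results below was not tested.

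The start-site regions of the sensor FXR and of its target repressor SHP are shown. Both genes fell after rescaling, as did *Klb*, *Nr1i3* and *Rxra*, whose windows are not shown. The RefSeq start sites on GRCm38.p6 gave windows for 9 of the 10 members. Shown are the 250 bases before the start of *Nr0b2* (chr4:133553126-133553375, plus strand, in no annotated exon) and of *Nr1h4* (chr10:89506659-89506908, minus strand, inside the longer GENCODE gene model but in no exon), written 5′ to 3′ on the strand of the gene.
Nr0b2: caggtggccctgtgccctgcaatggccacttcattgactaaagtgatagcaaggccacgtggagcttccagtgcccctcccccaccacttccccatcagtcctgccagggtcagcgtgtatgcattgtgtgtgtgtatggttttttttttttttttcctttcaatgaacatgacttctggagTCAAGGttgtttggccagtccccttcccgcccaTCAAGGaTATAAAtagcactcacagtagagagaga
Nr1h4: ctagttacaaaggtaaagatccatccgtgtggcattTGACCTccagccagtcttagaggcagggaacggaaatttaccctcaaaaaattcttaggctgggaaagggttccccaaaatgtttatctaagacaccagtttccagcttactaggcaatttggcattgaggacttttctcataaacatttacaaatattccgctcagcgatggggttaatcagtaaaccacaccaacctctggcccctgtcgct
In *Nr0b2* the capitals mark 2 copies of TCAAGG, the core bound by the receptor LRH-1, at positions -68 and -35 from the start site, and the TATA box TATAAA at -28. In *Nr1h4* they mark TGACCT, which is the nuclear receptor core AGGTCA read on the opposite strand, at -214. Both strands were searched, and of 32851 windows of the same length AGGTCA was held by 14%, TCAAGG by 12.5% and TATAAA by 12.4%, so each match is common by itself. TCAAGG and TATAAA were added to the search after the sequences had been read. The longer LRH-1 site CAAGGTCA was held by 1.33% of the windows and by neither of these. The FXR element made of AGGTCA and its inverted copy with 1 base between them was found in 0.00609% of the windows and in neither of these, and the TEAD core GGAATG, through which YAP1 acts, in 12.6% of the windows and in neither of these. A match or its absence in these windows says nothing of binding.

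In WT liver the members ran in order of mean TPM from *Rxra* (137 ± 13.6, SD, n = 6) through *Nr1i3* (121 ± 93.3), *Nr1h4* (89.7 ± 31.9), *Nr0b2* (68.4 ± 23.4), *Nr1i2* (47.5 ± 10.8) and *Fgfr4* (23.7 ± 3.93) to *Klb* (15.4 ± 4.84). The 6 WT values of each neighbouring pair in that order overlapped, except those of *Nr1i2* and *Fgfr4*. In KO the order was *Rxra* (145 ± 18.5), *Nr1i2* (74.1 ± 9.82), *Nr1h4* (67.1 ± 11.1), *Nr0b2* (47.8 ± 9.85), *Nr1i3* (42.5 ± 9.54), *Fgfr4* (41.7 ± 6.16) and *Klb* (11.9 ± 1.88), where *Rxra* lay apart from its neighbour, as did *Klb*, and the others overlapped. *Vdr* and *Gpbar1* were below the minimum mean of 0.5 TPM set for testing, and *Fgf15* was listed at 0 in all 12 libraries. Thus 7 of the 10 members entered the linear models.

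Over both sexes, limma called 2 of the 7 tested members higher in KO, *Fgfr4* and *Nr1i2*, and 0 lower, where 2 (*Nr0b2* and *Nr1i3*) were lower at an unadjusted p under 0.05. Of all tested genes 50.1% were called higher and 4.82% lower, so 2 of 7 is no excess. After rescaling, 1 of the 7 was higher (*Fgfr4*) and 5 were lower (*Nr1h4*, *Nr0b2*, *Klb*, *Nr1i3* and *Rxra*), against 20.9% and 18.7% of all tested genes. The median log2 difference of the 7 was -0.31 as deposited and -0.74 after rescaling, beside 0.35 and -0.04 over all tested genes. For the 6 hepatocyte markers the median was -0.02 as deposited and -0.48 after rescaling. On either scale the other 5 members lay below the median gene and *Fgfr4* and *Nr1i2* above it. In males alone 2 of the 7 were called higher (*Fgfr4* and *Nr1i2*) and 1 lower (*Nr0b2*), beside 43.3% and 2.81% of all tested genes, and after rescaling 0 were higher and 2 lower (*Nr0b2* and *Klb*), beside 13.9% and 10.2%. In females 1 was called higher (*Fgfr4*) and 2 lower (*Nr1h4* and *Nr1i3*), beside 29.1% and 4.68%, and after rescaling 0 were higher and the same 2 were lower, beside 15.2% and 10.9%.

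**Figure D1:**
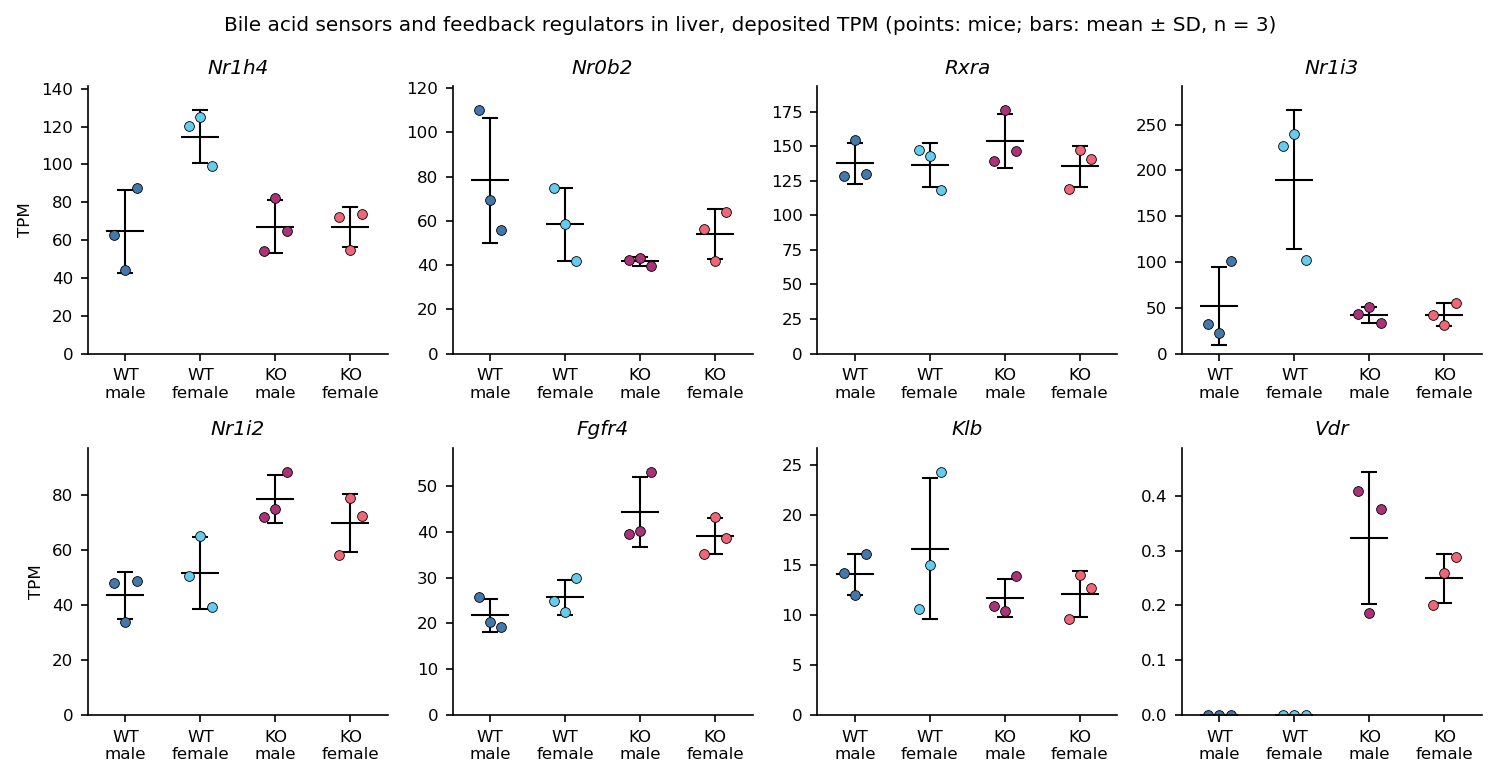
TPM as deposited for 8 of the members, with 1 point per mouse in each of the 4 groups and bars for the mean ± SD (n = 3). *Nr1h4* and *Nr1i3* stand highest in the WT females, *Fgfr4* is higher in all 6 KO mice than in any WT mouse, and *Vdr* is above 0 only in the KO mice.

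*Nr1h4* (ENSMUSG00000047638, chromosome 10, 89454234 to 89533585, minus strand, GRCm38) fell in the KO females, while the values of the KO and WT males overlapped. The WT females had 99.0, 120.2 and 125 TPM and the KO females 54.9, 72.4 and 73.6 TPM. These 2 groups did not overlap, and the change of -0.77 on the log2 scale (SE 0.233) passed the test with a limma adjusted p of 0.0215. Rescaling gave -1.12 (limma adjusted p = 0.00159). The WT males had 44.0, 62.5 and 87.6 TPM and the KO males 54.4, 64.9 and 82.1 TPM, which overlap throughout. Their difference was 0.09 as deposited and -0.48 after rescaling (limma adjusted p = 0.773 and 0.111). The difference between the effects in males and females was 0.86 (SE 0.329) and did not pass the test of the interaction (limma adjusted p = 0.464). With the sexes together *Nr1h4* was at -0.34 as deposited (limma adjusted p = 0.158) and fell by 0.80 after rescaling (limma adjusted p = 0.00194). Without WT male 2 the deposited difference also passed (limma adjusted p = 0.0213). The female difference as deposited was past the threshold in 9 of 12 fits that each left out 1 library, and was lost without WT female 1, WT female 2 or KO female 2, with a highest limma adjusted p of 0.0798.

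*Rxra* (ENSMUSG00000015846, chromosome 2, 27676440 to 27762957, plus strand), the common partner of FXR, PXR, CAR and the vitamin D receptor, had the smallest difference between the genotypes of the 7 tested members as deposited. The WT livers ran from 118 to 155 TPM with a median of 137 and the KO livers from 119 to 176 TPM with a median of 144. The ranges overlapped almost entirely, and the difference was 0.07 with a 95% confidence interval of -0.15 to 0.30 (limma adjusted p = 0.564). Relative to the median gene its sign changed, to -0.39 after rescaling (limma adjusted p = 0.0274), a call held in 6 of 12 fits that left out 1 library.

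*Nr0b2* (ENSMUSG00000037583, chromosome 4, 133553376 to 133556536, plus strand), which encodes the repressor SHP, fell in the KO males. The WT males had 55.7, 69.4 and 110.02 TPM, while the KO males had 39.5, 42.4 and 43.0 TPM and were the most alike of all the groups. No KO male reached the lowest WT male, and the difference of -0.84 (SE 0.256) had a limma adjusted p of 0.0183. After rescaling it was -1.41 (limma adjusted p = 0.00194). The females overlapped, at 41.7, 58.7 and 74.9 TPM in WT and 41.8, 56.2 and 63.9 TPM in KO. Their difference was -0.09 as deposited and -0.44 after rescaling (limma adjusted p = 0.811 and 0.244). The male and female effects differed by -0.74 (SE 0.362), which did not pass the interaction test (limma adjusted p = 0.591). Over both sexes *Nr0b2* was at -0.47 (limma adjusted p = 0.0665) and fell by 0.92 after rescaling (limma adjusted p = 0.00551). Without WT female 3 or KO female 3 the deposited difference also passed, with a lowest limma adjusted p of 0.0162, and it ran from -0.61 to -0.30 with 1 library left out. The male difference as deposited was lost without WT male 1 or KO male 3, where the limma adjusted p rose to at most 0.0786, and after rescaling it was held in 12 of 12 such fits.

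In the FGF15 axis, the hormone was listed at 0 and its hepatic receptor and co-receptor had differences of opposite sign. *Fgfr4* (ENSMUSG00000005320, chromosome 13, 55152640 to 55168759, plus strand) encodes the receptor tyrosine kinase that binds FGF15. The WT livers had 19.2, 20.3 and 25.8 TPM in males and 22.4, 24.8 and 29.9 TPM in females. The KO livers had 39.6, 40.2 and 53.1 TPM in males and 35.3, 38.7 and 43.2 TPM in females. All 6 KO values lay above all 6 WT values, as was so for 28.7% of the tested genes. The rise of 0.79 on the log2 scale (SE 0.129) had a limma adjusted p of 0.000194 and was held in 12 of 12 fits that left out 1 library. After rescaling the values of the genotypes overlapped and the rise was 0.34 (SE 0.117, limma adjusted p = 0.0350), held in 4 of 12 such fits with a highest limma adjusted p of 0.0823. In the comparison over both sexes *Fgfr4* was alone among the 7 tested members in passing in the same direction on both scales, which 20.9% of all tested genes did upward. By sex the rise was 0.99 in males (limma adjusted p = 0.000590) and 0.59 in females (limma adjusted p = 0.0171) as deposited, and neither passed after rescaling, at 0.43 and 0.25 (limma adjusted p = 0.0845 and 0.312). The female call was lost without WT female 1, WT female 2 or KO female 2, with a highest limma adjusted p of 0.0783.

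*Klb* (ENSMUSG00000029195, chromosome 5, 65348314 to 65384007, plus strand) encodes beta-Klotho, without which FGFR4 binds FGF15 poorly. The WT livers had 11.97, 14.2 and 16.1 TPM in males and 10.6, 15.03 and 24.3 TPM in females, against 10.4, 10.9 and 13.9 TPM in KO males and 9.61, 12.8 and 14.03 TPM in KO females. The groups overlapped, with WT female 3 above all others. The difference over both sexes was -0.31 (SE 0.173, limma adjusted p = 0.148) as deposited, from -0.42 to -0.17 with 1 library left out and past the threshold without WT female 1 (limma adjusted p = 0.0461). After rescaling *Klb* fell by 0.74 (SE 0.172, limma adjusted p = 0.00419), in 12 of 12 fits that left out 1 library. In males alone the rescaled difference was -0.78 (limma adjusted p = 0.0387), held in 4 of 12 such fits, and in females -0.69 (limma adjusted p = 0.0605). The receptor and co-receptor thus had differences of opposite sign on both scales in the same libraries.

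*Fgf15* (ENSMUSG00000031073, chromosome 7, 144896531 to 144900953, plus strand) was listed at 0 TPM in all 12 livers, and its exons share bases with 2 antisense genes on the opposite strand. The ileum, where it is made, was not analysed here. Of the 6 intestinal markers *Cdx2* was at 0 in all 12 libraries, while their summed level ran from 45.8 to 91.6 TPM in WT and from 21.5 to 33.4 TPM in KO, most of it from *Fabp2*. Only 1 of the 6, *Fabp2*, reached the minimum mean set for testing, so the fall of the sum is that of *Fabp2*. *Vil1*, under that minimum, went the other way, from a mean of 0.0924 TPM in WT to 0.722 TPM in KO.

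**Figure D2:**
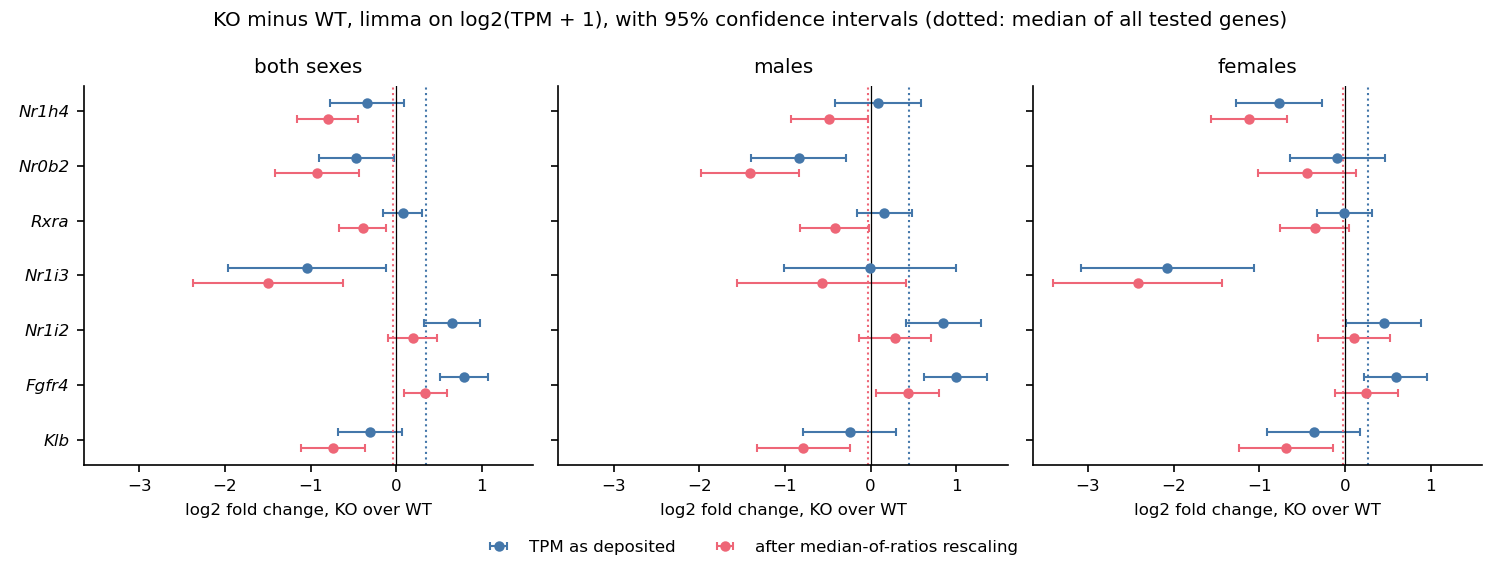
Differences between KO and WT for the 7 tested members on the log2(TPM + 1) scale, over both sexes and within each sex, with 95% confidence intervals from limma. Blue points are from TPM as deposited and red points from rescaled TPM, and dotted lines mark the median of all tested genes. Rescaling moves every point to the left by about the shift of that median, and the sign changes for *Rxra* over both sexes and for *Rxra* and *Nr1h4* in males.

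The xenobiotic sensors PXR and CAR, close relatives in the same receptor subfamily, had differences of opposite sign over both sexes. On neither scale did both of them pass the test. *Nr1i2* (ENSMUSG00000022809, chromosome 16, 38248323 to 38294824, minus strand), which encodes PXR, had 33.8, 47.8 and 48.8 TPM in WT males and 39.1, 50.6 and 65.1 TPM in WT females. The KO livers had 72.1, 74.8 and 88.4 TPM in males and 58.3, 72.4 and 78.7 TPM in females. In males the genotypes were apart, and in females KO female 1 lay below the highest WT female. The rise over both sexes was 0.65 (SE 0.150, limma adjusted p = 0.00258) as deposited, held in 12 of 12 fits that left out 1 library. It was 0.85 in males (limma adjusted p = 0.00510) and 0.45 in females (limma adjusted p = 0.109). Relative to the median gene no call remained, at 0.19 over both sexes with a 95% confidence interval of -0.10 to 0.48 (limma adjusted p = 0.274).

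*Nr1i3* (ENSMUSG00000005677, chromosome 1, 171213970 to 171220701, plus strand), which encodes CAR, had the widest spread of the members and was highest in WT females. The WT females had 102, 226 and 240.1 TPM and the WT males 22.6, 32.5 and 101 TPM. The KO females had 30.6, 41.8 and 55.2 TPM and the KO males 33.5, 42.9 and 51.0 TPM. Thus every WT female lay above every KO mouse of either sex, while 2 of the 3 WT males lay within or below the KO range and WT male 3 came close to the lowest WT female. In females *Nr1i3* fell by 2.07 on the log2 scale (SE 0.465, limma adjusted p = 0.00433), and by 2.42 after rescaling (limma adjusted p = 0.00184), both held in 12 of 12 fits that left out 1 library. In males the difference was -0.01 with a 95% confidence interval of -1.02 to 1.00 (limma adjusted p = 0.988), and -0.57 after rescaling (limma adjusted p = 0.397). Over both sexes it was -1.04 (limma adjusted p = 0.0527), and it fell by 1.496 after rescaling (limma adjusted p = 0.0103). Without WT male 1, WT male 2, KO male 1 or KO male 2 the deposited difference was also past the threshold, with a lowest limma adjusted p of 0.00915.

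The male effect of *Nr1i3* minus the female one was 2.06 (SE 0.657), which had an unadjusted p of 0.00804 in limma and a limma adjusted p of 0.310, so the effects were not shown to differ between the sexes. Without WT male 3 the same difference was 2.68 with a limma adjusted p of 0.0134. In WT liver the male minus female difference was -2.05 (limma adjusted p = 0.0243), and -1.83 after rescaling (limma adjusted p = 0.0428). It was lost without WT male 1, WT male 2, WT female 1 or WT female 2, with a highest limma adjusted p of 0.106. In KO liver the difference between the sexes was 0.02 (95% confidence interval -0.99 to 1.03, limma adjusted p = 0.996).

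The exons of *Nr1i3* share 3304 bases with those of *Tomm40l*, a protein-coding gene on the opposite strand, and the use of strand in counting is not given in the sources used here, so reads of the 2 genes cannot be told apart with certainty. *Tomm40l*, which encodes a protein of the mitochondrial outer membrane, had 36.1, 66.6 and 75.6 TPM in WT females and 6.46, 9.80 and 35.0 TPM in WT males. It had 10.7, 19.4 and 19.4 TPM in KO females and 9.77, 13.1 and 18.6 TPM in KO males. These levels were lower than those of *Nr1i3* in every library and followed the same pattern. In females *Tomm40l* fell by 1.76 (limma adjusted p = 0.0138), and WT males differed from WT females by -2.02 (limma adjusted p = 0.0309).

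**Figure D3:**
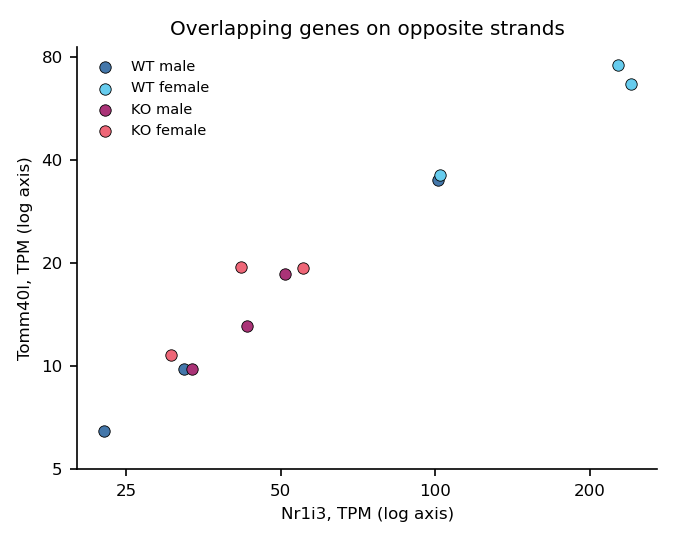
TPM as deposited of *Nr1i3* (horizontal) and of the overlapping gene *Tomm40l* (vertical), both on log axes, with 1 point per mouse. The 3 WT females and WT male 3 have the highest values of both genes, and the points of all 4 groups lie along a common line.

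*Vdr* (ENSMUSG00000022479, chromosome 15, 97854425 to 97910630, minus strand) was detected in every KO liver and in no WT liver, at a low level. The KO males had 0.185, 0.375 and 0.409 TPM and the KO females 0.201, 0.259 and 0.288 TPM, while all 6 WT livers were listed at 0. Whole reads could be recovered from the steps in the values, within 0.05 reads for 3869 of 3875 low genes searched. These gave 20, 9 and 17 reads in KO males 1 to 3, 12, 13 and 16 reads in KO females 1 to 3, and 0 in each WT library. There were 87 reads in KO against 0 in WT, and a count of 0 allows a limit of 3 reads over the WT group. Set against that limit, the KO reads put *Vdr* 34.9-fold higher in KO, and 25.2-fold after rescaling. The limit covers counting error in WT only. The 87 KO reads were taken as they stand, so these folds are not strict lower bounds. The exact permutation test of the log2(TPM + 1) difference of 0.36 gave p = 0.005, the smallest possible, and with no minimum on low values limma gave an adjusted p of 3.48e-05, and 9.88e-05 after rescaling. In mouse liver *Vdr* is known from non-parenchymal cells, and the macrophage and stellate markers in the same libraries were higher in KO by the sums given above, of which the macrophage sums did not overlap between the genotypes. All 6 macrophage markers rose on both scales. Of the 6 stellate cell markers 4 rose and 0 fell as deposited, and 2 rose and 1 fell after rescaling, beside 50.1% and 4.82%, and 20.9% and 18.7%, of all tested genes. None of either list was at 0. Of the 6 sinusoidal endothelial markers 0 rose and 1 fell as deposited, and 0 rose and 2 fell after rescaling, with sums of 48.2 to 80.4 TPM in WT and 28.9 to 115 TPM in KO. The cholangiocyte sums given above also did not overlap. Of 5 tested cholangiocyte markers 3 rose and 1 fell as deposited, and 2 rose and 1 fell after rescaling. Neutrophil markers summed to 0.218 to 20.2 TPM in WT and 12.1 to 45.6 TPM in KO. Of 4 tested, 3 rose as deposited and 1 after rescaling, and 0 fell on either scale. Of 3 tested lymphocyte markers 0 rose and 0 fell on either scale. The part of any of these cell types in the *Vdr* reads was not tested.

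*Gpbar1* (ENSMUSG00000064272, chromosome 1, 74278550 to 74279624, plus strand) was near the limit of detection. It had 1 read in WT female 3, 1 in KO male 1 and 5 in KO female 1, which correspond to 0.0661, 0.0989 and 0.405 TPM, and 0 reads in the other libraries. The difference of 0.09 on the log2(TPM + 1) scale, 0.07 after rescaling, had an exact permutation p of 0.5 as deposited. No difference was detected. Without KO female 1 it was nearly nil, at 0.01.

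**Figure D4:**
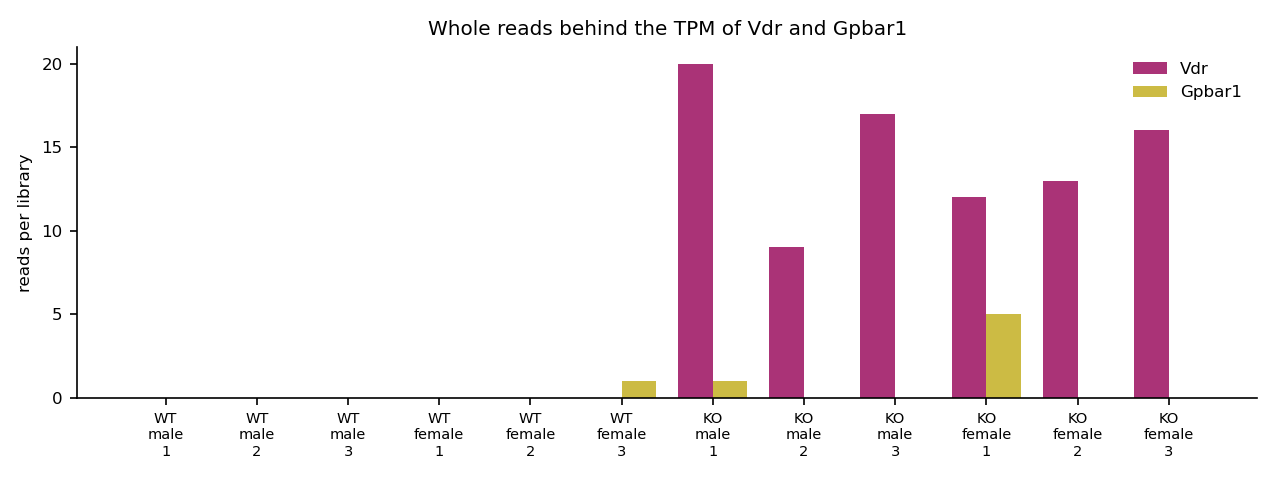
Whole reads recovered per library for *Vdr* and *Gpbar1*. All 6 KO libraries hold between 9 and 20 reads of *Vdr* and the WT libraries hold 0, while *Gpbar1* has 5 reads at most, in KO female 1.

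Calls between the sexes were made for members in WT liver and for none in KO liver. In WT, 2 of the 7 tested members were lower in males than in females, *Nr1h4* and *Nr1i3*, and 0 were higher, beside 4.60% and 1.14% of all tested genes. After rescaling 1 was lower (*Nr1i3*) and 0 higher, beside 2.27% and 2.11%. The difference of *Nr1h4* was -0.86 (limma adjusted p = 0.0488) as deposited and -0.64 after rescaling, where it did not pass (limma adjusted p = 0.0924), and it was held in 2 of 12 fits that left out 1 library. The WT male median gene was itself -0.19 below that of WT females as deposited. In KO, limma called 0 of the 7 members on either scale, beside 0.0814% of all tested genes on each. At an unadjusted p under 0.05 there were also 0, beside 655 of 12278 tested genes as deposited and 684 after rescaling. The interaction of genotype and sex was also called in 0 of the 7 on either scale, beside 0.912% of all tested genes as deposited and 0.839% after rescaling. At an unadjusted p under 0.05 there were 2 as deposited, *Nr1h4* and *Nr1i3*, beside 1087 of 12278 tested genes, and 3 after rescaling, with *Nr0b2* added, beside 931.

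Genes known to be induced through FXR in liver moved in both directions. Of 11 tested genes of that list, 8 rose and 1 fell as deposited, with a median of 0.89, and 5 rose and 3 fell after rescaling, with a median of 0.43, beside medians of 0.35 and -0.04 over all tested genes. Over all tested genes 50.1% rose and 4.82% fell as deposited, and 20.9% rose and 18.7% fell after rescaling. *Slc51b*, a subunit of the basolateral bile acid exporter, rose from 0.487 ± 0.393 to 24.6 ± 6.33 TPM (SD, n = 6), by 4.11 on the log2 scale (limma adjusted p = 1.01e-09), and by 3.82 after rescaling. *Abcb4*, the canalicular phospholipid exporter, rose from 96.1 ± 10.1 to 296 ± 61.7 TPM, by 1.59, and by 1.13 after rescaling. The heparan sulfate proteoglycan *Sdc1* and the apolipoprotein *Apoc2* each rose by 1.46, and by 0.99 after rescaling. *Abcb11*, the canalicular bile salt pump, named here after its values were seen, rose by 0.60 as deposited and was at 0.14 after rescaling. *Slc27a5*, which activates bile acids before conjugation and was also named after its values were seen, was the gene that fell on both scales, by 0.50 as deposited (limma adjusted p = 0.00300) and by 0.97 after rescaling.

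Of the 5 genes that FXR, SHP and FGFR4 are known to repress, 3 fell and 0 rose on both scales, with a median of -0.55 as deposited and -1.01 after rescaling. Of all tested genes 4.82% fell as deposited and 18.7% after rescaling. *Cyp8b1*, the enzyme that sets the share of cholic acid, dropped by 2.66 (limma adjusted p = 1.33e-06), from 192 ± 59.5 to 30.2 ± 9.94 TPM (SD, n = 6). *Slc10a1*, the sodium-dependent uptake carrier of bile acids, dropped by 1.32 (limma adjusted p = 8.47e-06), from 471 ± 113 to 184 ± 22.3 TPM. *Apoc3* fell by 0.55 as deposited (limma adjusted p = 0.0441), a call lost in 8 of 12 fits that left out 1 library, with no minimum on low values and without sex as a covariate (limma adjusted p = 0.0789 and 0.0964), and by 1.01 after rescaling. *Apoa1* was at 0.02 as deposited and -0.44 after rescaling, and passed on neither scale. *Cyp7a1*, the rate-limiting enzyme of bile acid synthesis, was at 0.82 over both sexes (SE 0.606, limma adjusted p = 0.266), and its differences had opposite signs in males and females. It had 5.02, 6.05 and 36.7 TPM in WT males and 111, 117 and 164 TPM in WT females, against means of 70.8 ± 33.5 and 72.8 ± 22.7 TPM (SD, n = 3) in KO males and females. It rose by 2.51 in males (limma adjusted p = 0.00381), while the female difference was -0.87 (limma adjusted p = 0.270) and the interaction of 3.37 had a limma adjusted p of 0.0990. All 3 WT males lay below every other mouse for *Cyp7a1*.

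Targets of PXR and CAR moved in both directions. Of 17 tested genes 8 rose and 4 fell as deposited, with a median of 0.50, and 8 rose and 6 fell after rescaling, with a median of 0.05. The shares of all tested genes were 50.1% and 4.82% as deposited, so the count of rises was no excess, and 20.9% and 18.7% after rescaling. The glutathione transferases *Gsta1* and *Gstm3* rose by 6.05 and 5.28 (limma adjusted p = 3.46e-09 and 5.26e-10), *Gsta1* from 3.64 ± 2.35 to 286 ± 73.6 TPM and *Gstm3* from 86.4 ± 27.8 to 3309 ± 617 TPM (SD, n = 6). The aldo-keto reductase *Akr1b7* rose by 3.07 and the cytochrome P450 *Cyp2c55* by 2.96. *Cyp3a11* and *Cyp2b10*, named after their values were seen because they are the standard markers of PXR and CAR, moved in opposite directions. *Cyp3a11* rose by 1.79 (limma adjusted p = 1.53e-06), from 2155 ± 737 to 7150.4 ± 547 TPM. *Cyp2b10* fell by 1.22 (limma adjusted p = 0.0223), from 14.8 ± 15.4 to 3.86 ± 2.07 TPM, and the call was lost without WT male 1 or WT female 3 and without sex as a covariate (limma adjusted p = 0.0538, 0.0513 and 0.101). Members of these enzyme families are near-identical in sequence and can share reads, so values of single *Gsta*, *Gstm*, *Cyp3a*, *Cyp2b* and *Cyp2c* genes are uncertain. In WT liver 7 of the 17 were lower and 2 higher in males than in females, and in KO liver limma called 0 of the 17, beside 5.74% and 0.0814% of all tested genes.

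**Figure D5:**
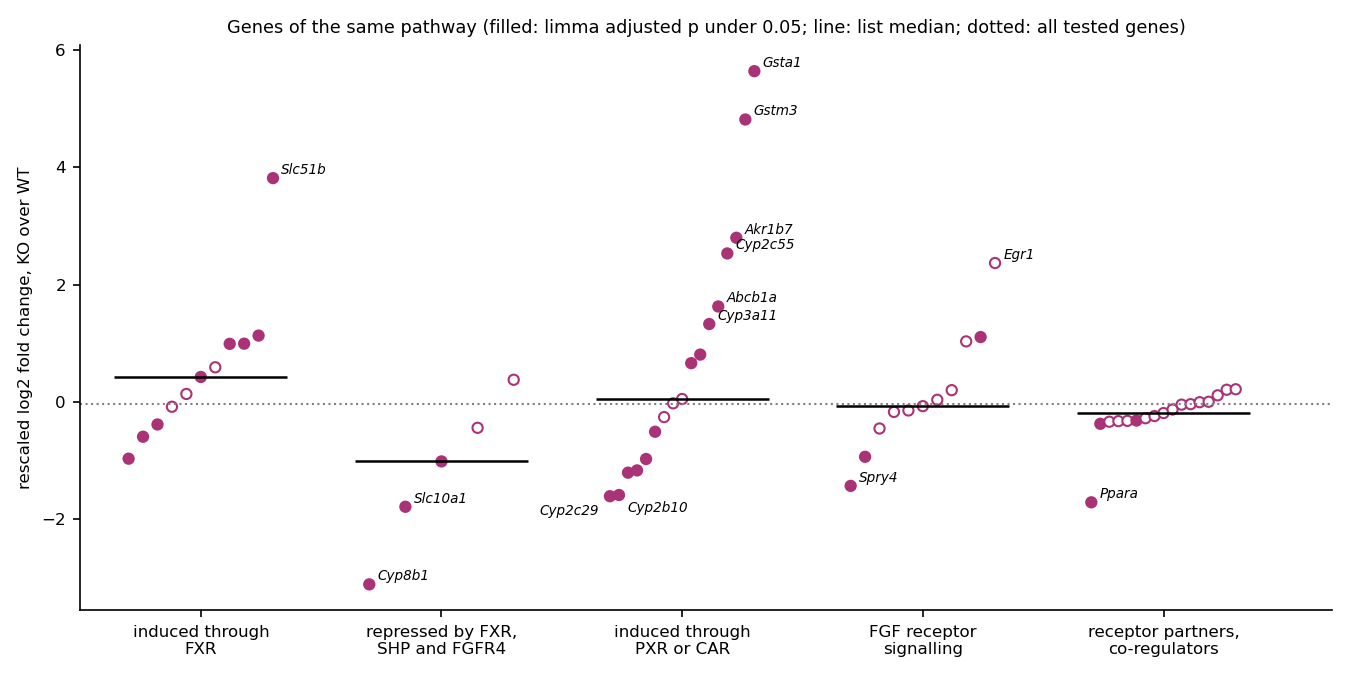
Differences between KO and WT after rescaling, on the log2(TPM + 1) scale, for the tested genes of 5 lists around the bile acid sensors. Filled points passed the limma test, solid lines mark the list medians and the dotted line the median of all tested genes. The repressed list has the lowest median, -1.01, and the widest range is that of the PXR and CAR targets, from *Cyp2c29* at -1.61 to *Gsta1* at 5.64.

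In FGF receptor signalling, a list of receptors, ligands, adaptors and feedback genes, 6 of 11 tested genes rose and 1 fell as deposited (median 0.33), and 1 rose and 2 fell after rescaling (median -0.07), beside 50.1% and 4.82%, and 20.9% and 18.7%, of all tested genes. The receptor *Fgfr1* rose by 1.51 (limma adjusted p = 3.05e-06), from 3.61 ± 1.11 to 12.04 ± 2.68 TPM (SD, n = 6), and by 1.11 after rescaling. *Spry4*, a feedback inhibitor of receptor tyrosine kinase signalling, dropped by 1.08 (limma adjusted p = 0.000908), from 6.30 ± 1.03 to 2.66 ± 1.62 TPM, and by 1.43 after rescaling. The hormone *Fgf21* and the immediate early gene *Egr1* rose by 1.32 and 2.82 as deposited (limma adjusted p = 0.0184 and 0.0162), and neither passed after rescaling (limma adjusted p = 0.0950 and 0.0639). *Egr1* had 5.75, 212 and 269 TPM in WT males, so 2 of the 3 lay among the KO values, which ran from 33.2 to 475 TPM. Among 17 receptor partners and co-regulators 6 rose and 1 fell as deposited (median 0.22), and 0 rose and 3 fell after rescaling (median -0.19), against the same shares of all tested genes, so neither the rises as deposited nor the falls after rescaling were in excess. *Ppara*, the fatty acid sensor that also pairs with RXR, dropped by 1.27 (limma adjusted p = 0.000257), from 39.1 ± 12.3 to 15.3 ± 3.68 TPM, and by 1.71 after rescaling. The receptor *Rxrg* and the oxysterol receptor *Nr1h2* rose by 0.58 and 0.45 as deposited and did not pass after rescaling, at 0.22 and 0.0029.

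Among the tested genes, those whose rescaled and centred log2 values lay closest to *Fgfr4* over the 12 libraries were *Ppp1r21* and *Plekha5*, with root mean square differences of 0.0849 and 0.0999, against a standard deviation of *Fgfr4* itself of 0.257. This is a description over 12 libraries with a shared genotype difference and no test.

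The authors' deposited table holds its own comparison of KO with WT. In the authors' deposited table *Nr0b2* is listed at a log2 fold change of -1.14 and *Klb* at -0.86, both with an FDR p-value of 0 after rounding, and *Nr1h4* at -0.53 with an FDR p-value of 0.02. The authors' deposited table lists *Vdr* at 6.30 with an FDR p-value of 0. The authors' deposited table gives *Rxra* at -0.55, *Nr1i3* at -0.68, *Fgfr4* at 0.24, *Nr1i2* at 0.14 and *Gpbar1* at 3.12, with FDR p-values of 0.12, 0.15, 0.31, 0.69 and 0.14. For the 7 tested members these signs in the authors' deposited table are those found here after rescaling, and for *Rxra* the sign is the opposite of the TPM as deposited.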

How the data were processed

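RNA of 12 livers was sequenced, and per the submitters' processing notes GRCm38 and edgeR were used; aligner, counter, annotation and use of strand are not given in the sources used here. The deposited table held TPM of 25676 genes, each column summing to 1000000 per the file headers and values, and the authors' own signed fold change, log fold change and FDR p-value columns, which served only for side-by-side values. Each sample column matched a label, and 0 columns were left over. The model was limma (version 3.58.1, R version 4.3.3, lmFit, eBayes with trend), applied to log2(TPM + 1) of the 12278 genes that reached a mean of 0.5 TPM over all samples. The genotype comparison used 12 samples with sex as covariate, and the others came from 1 model of the 4 group means. P-values were two-sided and Benjamini-Hochberg adjusted over all tested genes, with a threshold of 0.05. Rescaling divided each library by its median-of-ratios factor, which ran from 0.724 (WT male 2) to 1.34 (KO male 3). *Yap1* and members under the minimum were tested by exact permutation of genotype within sex over 400 arrangements, two-sided. Fold changes on this scale understate the change of low genes.

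The scripts were tested on simulated data. Positions came from GENCODE release 21 on GRCm38, by identifier. Members were named in full, with *Yap1*, up to 4 past-threshold genes of largest change per list, all 5 repressed genes, and the 2 genes closest to each of up to 3 members past the threshold on both scales, over both sexes, which was *Fgfr4* alone. A gene that this rule names is not reported here. The members and lists were chosen with earlier results of these data known. Replicates, 1 mouse each by the labels' animal names, were numbered in order of deposition. WT female 3 and KO female 1 carry lower animal numbers than the other mice, and whether these mark a batch is not given in the sources used here; with 1 sample of each genotype they are too few for values of their own, and WT male 2 has a separate library number.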

Additional observations from a re-analysis of the deposited data

How the results depend on the processing

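The scale decided most calls. The count of genes called fell from 6745 to 4861 over both sexes and from 5663 to 2959 in males under median-of-ratios rescaling. Rescaling turned *Rxra* over both sexes to -0.39, and in males *Nr1h4* to -0.48 and *Rxra* to -0.42; it made the calls of *Nr1h4*, *Nr0b2*, *Klb* and *Nr1i3* over both sexes and of *Klb* in males, and ended those of *Nr1i2* over both sexes and in males, *Fgfr4* in each sex and *Nr1h4* between WT sexes. By construction it removes the median shift. Leaving out the 20 most abundant genes turned *Rxra* over both sexes and *Nr1i3* between KO sexes from near 0 to -0.0010 and -0.0043, and brought *Nr0b2* and *Nr1i3* over both sexes past the threshold (limma adjusted p = 0.0425 and 0.0415), as did averaging the effects of the sexes (limma adjusted p = 0.0430 and 0.0168). With no minimum on low values the sex differences of *Nr1h4* and *Nr1i3* in WT were lost (limma adjusted p = 0.0848 and 0.0578), and without the trend that of *Nr1h4* (limma adjusted p = 0.0553).

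Leaving out each library in turn gave 291 to 1698 genes between the WT sexes (705 with all, 1698 without WT male 3, and 291 to 451 without any other WT mouse), 75 to 176 for the interaction (112 with all, highest without WT male 3) and 6 to 10 between the KO sexes (lowest without KO male 2). In males *Nr1h4* ran from -0.16 to 0.33 and *Nr1i3* from -0.45 to 0.61, in females *Nr0b2* from -0.31 to 0.10 and *Rxra* from -0.105 to 0.084, and between the KO sexes *Nr1i3* from -0.19 to 0.22, none of them called. On the rescaled values, left out in turn as an alternative chosen after seeing the data, *Nr1i3* in males ran from -0.95 to 0.0046 and *Nr1i2* in females from -0.067 to 0.28. Of the pathway genes named, *Apoa1* turned to -0.0458 and -0.0466 without WT female 1 and KO female 3. The cause of these changes was not tested. No paired analysis was possible because the labels carry no replicate numbers. The pseudocount of 0.1 changed no member's call or direction. A covariate for the 2 mice with low animal numbers, which the labels do not call a batch, was fitted only over both sexes, where it changed none of the 7 members' calls or directions and ended the call of *Apoc3* (limma adjusted p = 0.0512). *Gpbar1* and *Vdr* rest on few reads and *Fgf15* was listed at 0, and the part of depth in this was not tested.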
